A study of Mus musculus with 346 samples.

Results

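Single cells of the pre-pubertal mouse mammary gland were divided by Ngfr, the gene of a neurotrophin receptor that marks the neural crest and its glia, and the expression of all other genes was compared between the cells with and without it. The series holds 346 single cells, of which the labels place 144 at pre-puberty. A pre-pubertal cell was analysed when at least 100000 of its reads fell on genes with a symbol, mitochondrial and ribosomal protein genes left out, and at least 1500 of these genes were detected, which 116 cells met. Of these, 58 had at least 1 Ngfr read and are called Ngfr-positive, and 58 had none and are called Ngfr-negative. The cells were thus chosen by their Ngfr reads alone, and the Ngfr values below are a description.

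Both groups came from 2-week-old FVB/NJ mice, an inbred strain, and carry no transgene or treatment. Per the study's methods the mice were female, cells of several mice were pooled, lineage-negative cells were sorted with antibodies to CD29 and CD24 and caught on Fluidigm C1 chips, and each caught cell was inspected under a microscope. The labels call the source total epithelium and name no mouse for a cell. The cells of a group are therefore 1 sample with no replicate, so all differences below are descriptions of these cells, without a test, and the intervals cover counting error only.

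Ngfr encodes a receptor without kinase activity that binds all neurotrophins and their precursors. It acts alone or with partners, such as the Trk kinases, which bind mature neurotrophins, and sortilin, which binds the precursors. In peripheral nerve it is known as a marker of neural crest cells and of Schwann cells, the glia of nerves, that are immature, do not myelinate, or have lost their axon. Sox10 is the transcription factor that neural crest cells keep when they become glia, and Schwann cells that make myelin lower Ngfr. The study, by contrast, counts Ngfr among the basal-specific genes of the mammary gland. Its list of adult basal genes also holds Scn7a and Drp2, which are described below as genes of glia and myelin.

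The split rests on few reads in many cells. Ngfr (Entrez 18053) lies on chromosome 11 of mm10, at 95568818 to 95587698. In the Ngfr-positive cells it had 1 to 354 reads, with a median of 11.5, or 1.15 to 740.3 counts per 1000000 reads of the cell (CPM) with a median of 38.7. At the edge of the rule, 7 cells had exactly 1 read and 4 had exactly 2, next to the 58 cells with none. There were 26 positive cells with fewer than 10 reads and 32 with 10 or more, and the 5 highest cells gave 56% of the 2550 Ngfr reads. Over the summed reads of the positive cells Ngfr stood at 115 CPM (exact Poisson 95% interval 110.2 to 119).

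Depth was compared between the groups in several ways. On the analysed genes, Ngfr-positive cells held 109387 to 1188585 reads with a median of 307056, and Ngfr-negative cells 126451 to 1107286 with a median of 283444, so the medians stood in a ratio of 1.08 and the ranges overlapped. When the 116 cells were divided by depth into 3 classes of like size, the share of Ngfr-positive cells was 41.0% (16 of 39, exact binomial 95% interval 25.6 to 57.9) in the lowest class, 51.3% (20 of 39, 34.8 to 67.6) in the middle class and 57.9% (22 of 38, 40.8 to 73.7) in the highest. The intervals of the classes overlap, and the shares stood higher with depth.

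Thinning every cell at random to 100000 reads left 48 of the 58 positive cells with an Ngfr read. The shares of the classes were then 35.9%, 43.6% and 44.7%, so a smaller part of the trend remained at equal depth. Across the 116 cells Spearman's rank correlation of Ngfr CPM with depth was 0.13, and 0.09 for the thinned reads. The thinned cells detected a median of 2876 genes where Ngfr-positive and 2835.5 where Ngfr-negative, and mitochondrial genes took a median of 3.25% and 3.53% of reads. Depth, gene number and the mitochondrial share thus lay close together in both groups. At 100000 reads, 10 of the positive cells no longer held an Ngfr read.

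**Figure D1:**
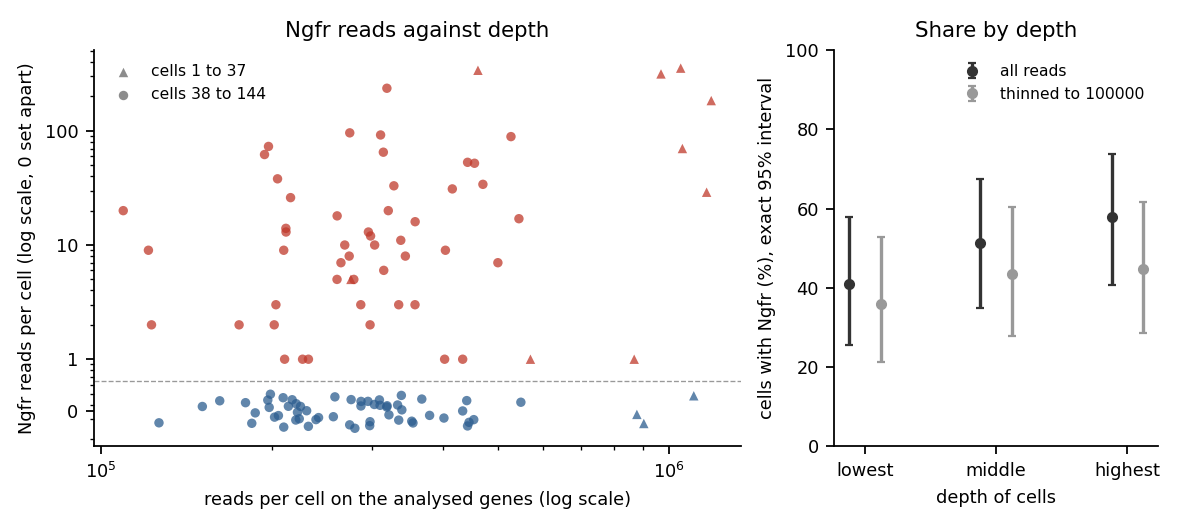
Left, Ngfr reads of each of the 116 pre-pubertal cells (vertical, log scale with 0 set apart and jittered) against its reads on the analysed genes (horizontal, log scale), with red for Ngfr-positive and blue for Ngfr-negative cells and triangles for cells numbered 1 to 37. Right, share of cells with Ngfr in the classes of lowest, middle and highest depth with exact 95% intervals, from 41.0% to 57.9% with all reads (black) and from 35.9% to 44.7% after thinning to 100000 reads (grey).

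Coverage differed by cell number in the labels. Of the 28 pre-pubertal cells that missed the filter, 25 were numbered 1 to 37. Of the 12 analysed cells numbered 1 to 37, 9 were Ngfr-positive (75%, 42.8 to 94.5), and of the 104 from number 38 on, 49 were (47.1%, 37.2 to 57.2). The later cells alone gave a ratio of median depths of 1.07.

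At the other stages, cells of 4.7 to 4.9-week-old (pubertal) and 10-week-old (adult) mice, Ngfr was nearly absent. No Ngfr read was found in the 119 analysed pubertal cells, which allows a share of up to 2.52%, and 1 of 43 adult cells (2.33%, 0.0589 to 12.3) had 61 reads. That adult cell carried 12 of 15 basal and 9 of 10 luminal epithelial markers, 2099 reads of the basal keratin Krt14 and only 5 of 24 Schwann markers. The 5 pubertal cells with 10 to 13 Schwann markers also had 0 Ngfr reads, and 4 of them carried 8 to 12 of 15 basal markers.

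With all reads counted, Sox10 was found as often in cells without Ngfr as in cells with it. Sox10 (Entrez 20665, chromosome 15, 79154913 to 79164490 in mm10) had a read in 48 of 58 cells of each group, and in 46 Ngfr-positive (79.3%, 66.6 to 88.8) and 42 Ngfr-negative cells (72.4%, 59.1 to 83.3) after thinning. Its level ranged from 0 to 1063 CPM (median 176) in Ngfr-positive and from 0 to 6277 CPM (median 74.1) in Ngfr-negative cells, so the groups overlapped over nearly their whole range. The summed levels were 228 and 283 CPM, a log2 ratio of -0.30, but 26.6% of the negative group's reads came from 1 cell, and without the highest cell of each group the log2 ratio was -0.01. The adult and pubertal cells had Sox10 in 25.6% and 21.0% of thinned cells.

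Both groups carried many markers of Schwann cells and few of the epithelium that the labels name. Of 24 Schwann markers, thinned Ngfr-positive cells carried 12 to 22 (median 17.5) and Ngfr-negative cells 5 to 21 (median 17). Of 14 pan-epithelial markers, such as the keratins and Epcam, the medians were 1 and 0, with at most 6 and 7 in a cell. The summed Schwann marker level was 27120.4 CPM in positive and 26842 CPM in negative cells. At 10 CPM or more in either group, all 24 Schwann markers were measured, of which 12 stood higher and 12 lower in Ngfr-positive cells, with a median log2 ratio of -0.01. By detection they were less even. After thinning, 17 of the 24 were in more Ngfr-positive than Ngfr-negative cells and 5 in fewer, beside 49.6% and 40% of all genes tested.

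Single Schwann genes showed the same overlap. Scn7a, a sodium channel of glia that do not myelinate, ranged from 464 to 17381 CPM (median 6165) in Ngfr-positive and from 21.4 to 20351 CPM (median 5009) in Ngfr-negative cells. Its mean log2(CPM + 10) was 12.37 ± 1.07 (SD, n = 58 cells) against 11.99 ± 1.59, a difference of 0.28 of the SD over cells, and the groups overlapped. S100b, a calcium-binding glial protein, gave a log2 ratio of 0.01. It was 0.84 within the cells numbered 38 and above and -2.21 in those numbered 1 to 37. Ncam1, an adhesion molecule of immature and non-myelinating Schwann cells, gave 0.08, or -0.28 within the cells numbered 38 and above. Erbb3, the neuregulin receptor of Schwann cells, was found in 14 and 12 thinned cells. Its log2 ratio was 0.59, or 1.02 within the cells numbered 38 and above.

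**Figure D2:**
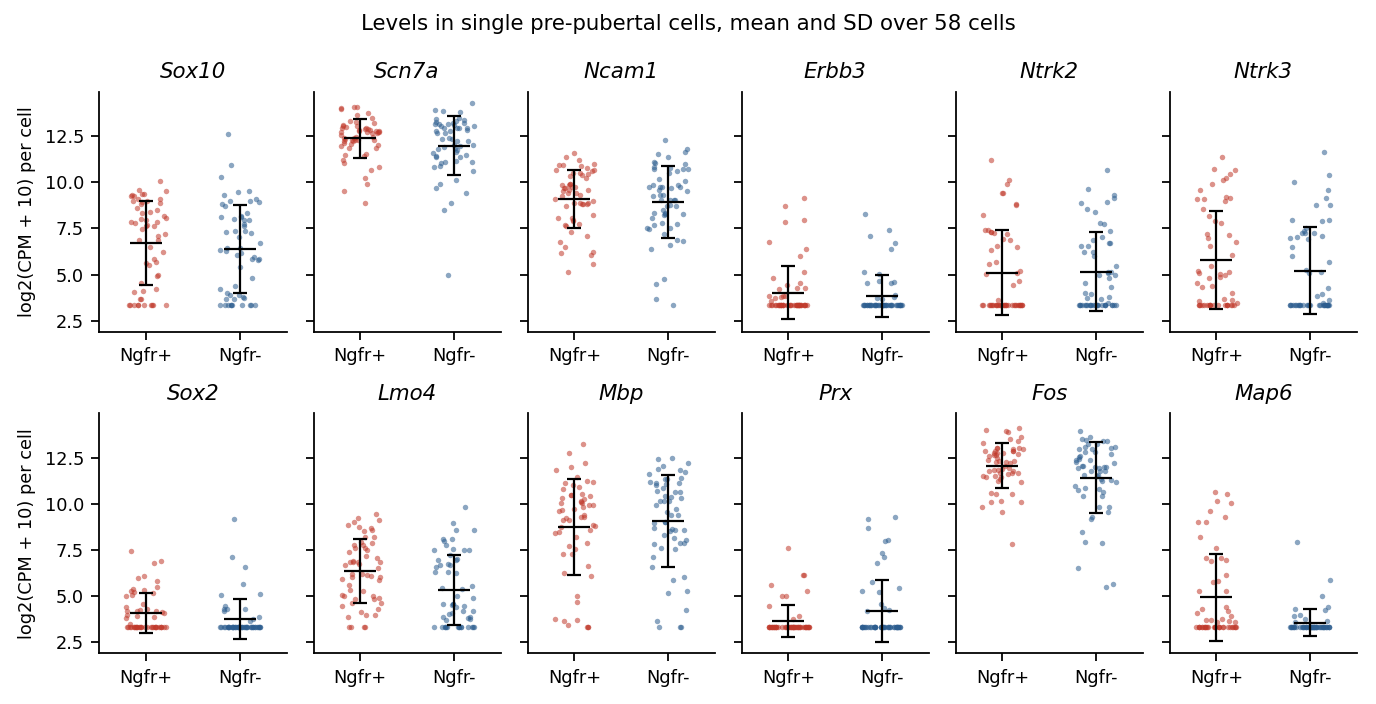
Level of 12 genes in single cells as log2(CPM + 10), 58 Ngfr-positive cells in red and 58 Ngfr-negative cells in blue, with the mean and SD over cells in black and the floor of each panel at 0 CPM. The groups overlap in every panel, and Map6 is the gene with the largest difference in units of SD, 0.78.

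Markers of other cells were sparse but not absent. The counts of genes past 2-fold in each list are to be read against all 9175 genes at 10 CPM or more, of which 18.3% stood at least 2-fold higher and 19.7% at least 2-fold lower in Ngfr-positive cells. Over all settings tried, the median log2 ratio of 13 of 18 gene lists took both signs. Of 10 immune markers 4 had 0 reads in both groups and the sum was 1.12 and 0.705 CPM, near 0. Only 1 of 10 endothelial, 2 of 7 pericyte, 1 of 10 neuron, 3 of 7 melanocyte and 4 of 8 perineurial markers reached 10 CPM, and 0, 0, 1, 1 and 1 of these were 2-fold higher, with 0 lower. Among the fibroblast markers, 8 of 14 stood at least 2-fold lower in Ngfr-positive cells and 0 higher (median log2 ratio -1.33). The collagens that Schwann cells also express were in nearly all cells of both groups, with Col3a1 in 58 and 58 thinned cells. Dcn, a proteoglycan of fibroblasts, was in 7 cells of each group. Of 15 fibroblast markers, 4 were in more Ngfr-positive than Ngfr-negative thinned cells and 7 in fewer. Over all genes in at least 1 thinned cell these shares were 45.6% and 41.9%. Summed fibroblast markers per cell ranged from 1222.03 to 64038.8 CPM and from 247.6 to 163305 CPM.

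Of 9 measured pan-epithelial markers 0 were 2-fold higher and 4 lower (median log2 ratio -0.87), of 7 luminal markers 1 was higher and 3 lower (-0.88), and of 14 basal markers 3 were higher and 3 lower (0.24, or -0.92 within the cells numbered 38 and above). Some were spread over cells, as was Krt14, a basal keratin, in 14 and 14 thinned cells, and some rested on 1 cell. Krt18, a luminal keratin, stood at 6.88 CPM (reads of 5 thinned cells) and 151.7 CPM (4 cells), but 94.7% of the negative reads were from 1 cell. Acta2, a smooth muscle actin of basal cells and pericytes, stood at 738 and 484 CPM, with 78.6% of the positive reads from 1 cell. In all, 8 Ngfr-positive and 12 Ngfr-negative cells carried at least 10 of 15 fibroblast, 10 of 15 basal or 6 of 10 luminal markers, or fewer than 10 Schwann markers, limits set after the data were seen. Without these 20 cells the median log2 ratio of the fibroblast markers was 0.12. Some of the 20 were left out for the same fibroblast markers, so this value is set in part by the choice. Ngfr-negative cell 41, with 13 of 15 fibroblast and 5 of 24 Schwann markers, was among the 20 cells.

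Across all genes the split by Ngfr was accompanied by many differences of ratio and few of spread. Of 9175 genes at 10 CPM or more in either group, Ngfr left out, 1680 (18.3%) stood at least 2-fold higher in Ngfr-positive cells and 1810 (19.7%) at least 2-fold lower, on log2((CPM + 5)/(CPM + 5)) of the summed reads, with a median log2 ratio of -0.05. Without the 20 cells that carried markers of other types, 1898 of 8996 genes were higher and 1898 lower. The share past 2-fold depended on how many cells held the gene. It was 33.7% higher and 39.3% lower among the 2007 genes found in under 10% of thinned cells, 6.40% and 6.11% among the 1063 genes in 50 to 75% of cells, and 0.357% each among the 280 genes in at least 90%.

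Of those 280 widespread genes, only Vcl and Tpp2 passed 2-fold. Vcl encodes vinculin, which links integrin adhesions to actin, and ranged from 3.50 to 4022 CPM (median 808) in Ngfr-positive and from 0 to 2096 CPM (median 427) in Ngfr-negative cells, a log2 ratio of 1.01, or 0.88 within the cells numbered 38 and above. Tpp2, a cytosolic peptidase, ranged from 0 to 1425 CPM (median 113) in Ngfr-positive and from 0 to 3094 CPM (median 263) in Ngfr-negative cells, a log2 ratio of -1.17. Taking all 1740 genes found in at least 50% of the thinned cells, 75 (4.31%) were 2-fold higher and 71 (4.08%) lower.

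No gene other than Ngfr separated the groups. On log2(CPM + 10) of single cells, 53 genes (0.578%) had means more than 0.5 SD higher in Ngfr-positive cells, 19 (0.207%) more than 0.5 SD lower, 0 of the 9175 were apart by more than 1 SD, and for none did the ranges of the groups fail to overlap. The largest difference was 0.78 SD for Map6, a protein that stabilises microtubules, and the lowest -0.60 SD for Gosr1, a Golgi transport protein. Map6 was in 23 Ngfr-positive and 7 Ngfr-negative thinned cells and ranged from 0 to 1588 CPM (median 2.01) in Ngfr-positive and from 0 to 233 CPM (median 0) in Ngfr-negative cells. It stood at 101 CPM (95% interval 96.7 to 105) against 4.72 (3.78 to 5.82).

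**Figure D3:**
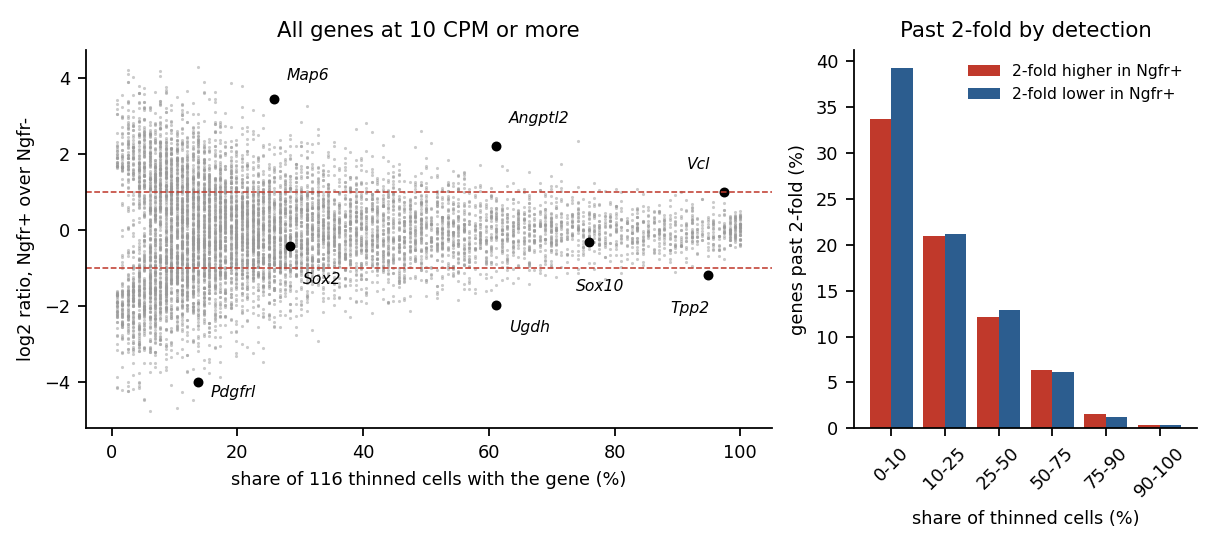
Left, log2 ratio of Ngfr-positive over Ngfr-negative cells for the 9175 genes at 10 CPM or more (vertical) against the share of the 116 thinned cells that hold the gene (horizontal, %), with dashed lines at 2-fold and 8 genes named. Right, percent of genes at least 2-fold higher (red) or lower (blue) in Ngfr-positive cells by that share, from 33.7% and 39.3% of genes in under 10% of cells to 0.357% each of genes in at least 90%.

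Among the neurotrophin genes, Ntf3 and Ntf5 each stood below 1 CPM in both groups. Bdnf, the ligand gene of Ntrk2, was found in 5 Ngfr-positive and 8 Ngfr-negative thinned cells and ranged from 0 to 1330.0 CPM (median 0) in Ngfr-positive and from 0 to 3229 CPM (median 0) in Ngfr-negative cells. Its log2 ratio of -1.99 rested on single cells, which gave 80.9% and 76.3% of its reads.

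Among the other receptors and partners, 8 of 11 reached 10 CPM, of which 2 were 2-fold higher and 2 lower (median log2 ratio 0.46). The Nogo receptor genes Lingo1 and Rtn4r had 0 reads in all 116 cells. Ntrk2, the receptor of brain-derived neurotrophic factor, was in 26 and 31 thinned cells at 131 and 107 CPM (log2 ratio 0.28). Ntrk3, the receptor of neurotrophin 3, ranged from 0 to 2601 CPM (median 20.6) in Ngfr-positive and from 0 to 3218 CPM (median 1.67) in Ngfr-negative cells, and was in 35 and 29 thinned cells with a log2 ratio of 0.64. Ntrk2 and Ntrk3 were thus detected with and without Ngfr.

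Sort1, the sortilin that pairs with Ngfr to bind neurotrophin precursors, ranged from 0 to 2886 CPM (median 5.11) in Ngfr-positive and from 0 to 695 CPM (median 2.66) in Ngfr-negative cells. Its log2 ratio was 1.29, although it was in 27 and 25 thinned cells, so the higher sum came from higher levels in some cells. Tnfrsf19, a receptor of the same family as Ngfr, gave 1.64, with 84.0% of the positive reads from 1 cell, 0.30 without the highest cells and -1.99 when Ngfr was called after thinning. Sorl1, a sorting receptor, was the other way at -1.32 (9 and 14 thinned cells, or -0.10 without the 20 cells with markers of other types), and Sorcs3 had 0 reads in Ngfr-positive cells while 97.1% of its reads in negative cells came from 1 cell.

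Compared per length, as reads per 1000 bases per 1000000 reads (RPKM), Ngfr stood at 33.6 RPKM in the Ngfr-positive cells. In the same cells Ntrk3 stood at 56.7 RPKM, Sort1 at 20.8, Ntrk2 at 13.3 and Sorcs1 at 8.23. These cells were chosen for their Ngfr reads and not for those of the other genes, so the rank of Ngfr among them is set in part by the split. Over all 116 cells Ngfr stood at 62.7 CPM, against 115 CPM in the Ngfr-positive cells. Both are CPM, not per length, and are not to be set beside the RPKM values above. The rank of Ngfr among these genes over all 116 cells is not given here.

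Genes of 16 proteins that bind Ngfr inside the cell, or are related to such proteins, were listed. Of these 14 were measured, with 0 at least 2-fold higher and 4 lower, beside 18.3% and 19.7% of all genes tested, and the median log2 ratio was -0.38, or -0.07 within the cells numbered 38 and above. Arhgdia, an inhibitor of small GTPases that binds Ngfr, was found in 38 Ngfr-positive and 25 Ngfr-negative thinned cells. It ranged from 0 to 1219.5 CPM (median 47.7) in Ngfr-positive and from 0 to 1499 CPM (median 0) in Ngfr-negative cells. Its log2 ratio was 0.69 and its difference 0.51 SD over cells, with 61.0% of the negative reads from 1 cell. The log2 ratio was 1.76, past 2-fold, within the cells numbered 38 and above, and 1.76 without the highest cells. It was 0.50 without the 20 cells with markers of other types and -1.08 in the cells numbered 1 to 37. Maged1, which binds the inner part of Ngfr, was alike at 204 and 175 CPM, in 41 and 42 cells. Irak1 and Pard3, a kinase and a polarity protein that bind Ngfr, gave log2 ratios of -0.26 and -0.25.

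The 4 adaptors past 2-fold were each carried by few cells. Ripk2, a kinase, was in 10 and 11 thinned cells (log2 ratio -1.23, or -0.51 within the cells numbered 38 and above), and Prdm4, a zinc finger protein, in 6 and 8 (-1.40, or -0.90 in those cells). Ndn, the growth suppressor necdin, gave -1.15 with 88.6% of the negative reads from 1 cell, 0.74 without the highest cells and 1.59, the other direction, within the cells numbered 38 and above. Zfp369, a zinc finger protein related to a known Ngfr partner, had 0 reads in Ngfr-positive cells and 98.0% of its reads in 1 negative cell.

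Transcription factors of neural crest and glia were present in both groups, with 0 of 16 measured genes past 2-fold in either direction (median log2 ratio 0.27, or -0.10 with only the cells of 10 or more Ngfr reads as positive). More Ngfr-positive than Ngfr-negative thinned cells held the gene for 13 of the 18 listed, and fewer for 2. Over the 15707 genes found in at least 1 thinned cell, Ngfr left out, 45.6% were in more Ngfr-positive and 41.9% in fewer Ngfr-positive than Ngfr-negative cells. Sox2, a factor of immature Schwann cells that holds back myelination, differed most in this way, in 24 and 9 cells. Its level ranged from 0 to 163 CPM (median 0) in Ngfr-positive and from 0 to 565 CPM (median 0) in Ngfr-negative cells, and the summed log2 ratio was -0.42, the other direction, since 71.6% of the negative reads came from 1 cell (without the highest cells it was 0.49).

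By class of depth, thinned Sox2 was found in 43.8%, 45% and 36.4% of Ngfr-positive and in 13.0%, 21.1% and 12.5% of Ngfr-negative cells, from the lowest class to the highest. A second random thinning gave 21 and 10 cells. Lmo4, a cofactor of LIM-domain factors, was in 49 and 36 thinned cells and ranged from 0 to 684 CPM (median 73.4) in Ngfr-positive and from 0 to 903 CPM (median 13.5) in Ngfr-negative cells, a log2 ratio of 0.43 and a difference of 0.55 SD. Ets1 was in 44 and 35 thinned cells (log2 ratio 0.65).

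The factors that switch on myelin genes did not follow the split. Egr2, which drives the myelin program, was in 48 and 45 thinned cells and had medians of 128 and 129 CPM (log2 ratio 0.57). Pou3f1, which acts before Egr2, was in 13 and 9 cells. Zeb2, needed for Schwann cell maturation, and Hes1, a Notch target, were in almost every cell, with log2 ratios of 0.53 and -0.26. Foxd3 and Tfap2a, early neural crest factors, were in 19 and 17 and in 21 and 17 cells.

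Genes of immature and repair Schwann cells, the states in which Ngfr is known, were found in both groups. Of 24 genes 19 were measured, 1 was 2-fold higher, 1 lower, and the median log2 ratio was 0.08. Jun, the factor of the repair program, was in 58 cells of each group with a log2 ratio of 0.16, and Atf3, a factor induced by injury, gave 0.05. L1cam, an axon adhesion molecule, was in 53 and 47 thinned cells, and Gfra3, the artemin receptor, in 47 and 38 with medians of 287 and 73.6 CPM and yet a summed log2 ratio of -0.56. Nes, the intermediate filament nestin, was the 1 higher gene at 1.70 (9 and 6 cells), and the lower one was Bdnf.

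Abundant myelin genes were close in both groups, and the myelin genes that differed were in few cells. Of 22 genes 17 were measured, 2 were 2-fold higher and 4 lower, the median log2 ratio was -0.24, and 14 of the 22 were in more negative than positive cells against 4 in more positive cells, beside 41.9% and 45.6% of all genes found. The abundant proteins Mbp, Pmp22 and Cnp gave log2 ratios of -0.24, -0.41 and -0.24. Mbp, which compacts the sheath, ranged from 0 to 9806 CPM (median 646) in Ngfr-positive and from 0 to 5786 CPM (median 702) in Ngfr-negative cells, a difference of -0.12 SD, and the groups overlapped. In the cells numbered 38 and above alone, the median log2 ratio of the myelin genes was 0.10, the other direction.

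The 4 lower genes are to be read against the 19.7% of all genes tested. Prx, which links the sheath to the cytoskeleton, ranged from 0 to 185 CPM (median 0) in Ngfr-positive and from 0 to 609 CPM (median 0) in Ngfr-negative cells and was in 9 and 14 thinned cells (log2 ratio -1.50). Drp2, its partner in the sheath, was in 5 and 11 cells (-2.84), and Cldn19, the claudin of Schwann cell tight junctions, in 7 and 14 (-1.96). Without the highest cell of each group these log2 ratios were -1.84, -2.91 and -1.80.

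Gldn, the gliomedin of nodes, gave -1.18 from 2 and 3 cells, with 96.8% and 93.2% of reads from single cells, and 1.21 within the cells numbered 38 and above. Below the level filter, Fa2h, which makes hydroxylated myelin lipids, was in 1 and 8 cells, Dusp15, a phosphatase known in myelinating glia, in 1 and 5, and Pmp2, a myelin lipid carrier, in 0 and 2. The higher genes were Bcas1, known from young oligodendrocytes, at 2.04 (12 and 7 cells, or -0.50 when Ngfr was called after thinning) and the neurofascin gene Nfasc at 1.94 (5 and 2 cells, 88.7% of positive reads in 1 cell, or -0.35 with 10 or more Ngfr reads).

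Counted per cell, thinned Ngfr-positive cells held 3 to 16 of the 22 myelin genes (median 7.5) and Ngfr-negative cells 3 to 17 (median 7). At least 12 were held by 2 positive cells (3.45%, 0.420 to 11.9) and 9 negative cells (15.5%, 7.35 to 27.4), and at least 10 by 7 (12.1%, 4.99 to 23.3) and 11 (19.0%, 9.87 to 31.4). Both limits were chosen after the counts were seen, and the intervals overlap at each. Ngfr-positive cells with many myelin genes were therefore present.

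Genes of cholesterol synthesis, a supply of myelin membrane, had a median log2 ratio of -0.56, or -0.09 within the cells numbered 38 and above, with 3 of 16 measured genes 2-fold higher and 1 lower. Hmgcs1, an early step of the pathway, gave 0.01. Dhcr7, the last step, was in 9 and 5 thinned cells (1.68), and Mvd, a later step than Hmgcs1, in 2 and 3 (-2.87).

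**Figure D4:**
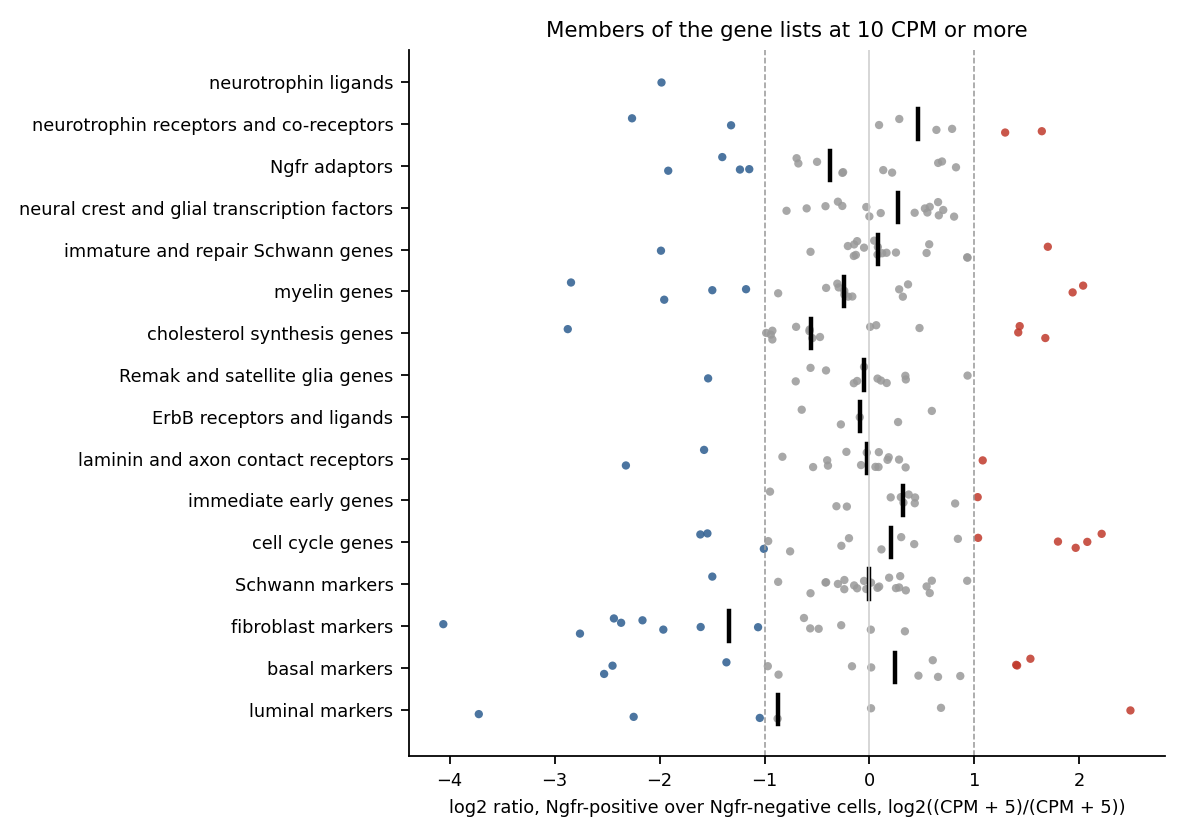
Log2 ratio of Ngfr-positive over Ngfr-negative cells (horizontal) for each member of 16 gene lists that reached 10 CPM, with red and blue for genes past 2-fold (dashed lines), grey for the others and a black bar at the median of lists with at least 3 such genes. Schwann markers centre on -0.01 and glial transcription factors lie within 2-fold, while fibroblast markers reach far to the left.

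Genes of glia that ensheath axons without myelin, of ErbB signalling and of matrix contact were mostly within 2-fold. Of 13 measured Remak and satellite glia genes 0 were 2-fold higher and 1 lower, namely Rxrg, a retinoid receptor, at -1.54 (-0.94 within the cells numbered 38 and above), which was nonetheless in more positive than negative cells (36 and 29). None of 5 measured ErbB genes passed 2-fold. Among 17 genes of laminins, their receptors and axon contact, 1 was higher and 2 lower.

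The higher one was Adgrg6, an adhesion receptor that Schwann cells need to begin myelination. It ranged from 0 to 3535 CPM (median 258) in Ngfr-positive and from 0 to 1437 CPM (median 119) in Ngfr-negative cells, was in 51 and 42 thinned cells and had a log2 ratio of 1.08, or 0.73 without the highest cells and 0.70 within the cells numbered 38 and above. Itga2, a collagen-binding integrin, and Lamb2, a laminin chain, were the lower genes at -1.58 and -2.32, in 22 and 23 and in 15 and 18 cells.

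Immediate early genes, which dissociation of tissue can induce, were high in both groups, with a summed level of 14102.8 and 11564.9 CPM. Of 11 measured, 1 was 2-fold higher and 0 lower (median log2 ratio 0.32), the higher one being Fosl2 at 1.03, or 0.53 within the cells numbered 38 and above. Of the 12 listed, 9 were in more Ngfr-positive than Ngfr-negative thinned cells and 1 in fewer, beside 45.6% and 41.9% of all genes found. Fos ranged from 215 to 17623 CPM (median 4944) in Ngfr-positive and from 35.2 to 15870.1 CPM (median 3905) in Ngfr-negative cells, a difference of 0.41 SD, and Egr1 gave a log2 ratio of 0.30.

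Most cell cycle genes were in few cells of either group. Of 16 measured, 5 were 2-fold higher and 3 lower (median log2 ratio 0.21), and 14 were in more positive than negative thinned cells against 0 in more negative, beside 49.6% and 40% of all genes tested. With only the cells of 10 or more Ngfr reads set against the negative ones, the median log2 ratio was -0.63, the other direction. Mki67, a marker of proliferating cells, ranged from 0 to 3104 CPM (median 0) in Ngfr-positive and from 0 to 587 CPM (median 0) in Ngfr-negative cells and was in 19 and 14 cells (log2 ratio 2.21, or 0.61 when Ngfr was called after thinning). Top2a, the topoisomerase of dividing cells, was in 17 and 11 (1.96), and Bub1, a spindle checkpoint kinase, in 13 and 4 (1.03, or 0.48 when Ngfr was called after thinning).

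The 2 replication genes Mcm2 and Mcm5 gave 2.08 and 1.80, but Mcm2 was 1 cell. Aurka, Cdc20 and Tyms were the lower genes, at -1.54, -1.61 and -1.01, with 87.1%, 96.9% and 79.6% of the negative reads from single cells. At least 5 of the 16 genes, a limit set after the counts were seen, were held by 12 Ngfr-positive (20.7%, 11.2 to 33.4) and 7 Ngfr-negative cells (12.1%, 4.99 to 23.3), whose intervals overlap.

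Outside the lists, 1171 genes reached 50 CPM, were present in 50% or more of the higher group's thinned cells and had no cell with over 25% of a group's reads. Of these 46 were 2-fold higher and 36 lower in Ngfr-positive cells, and the 12 largest ratios in each direction are described here. They are extremes of the ranking by construction. Of 72 genes past 2-fold that are named here, 30 were past it in the same direction under all of 15 alternative settings, the cells numbered 1 to 37 left out. Angptl2, a secreted angiopoietin-like protein, ranged from 0 to 5728 CPM (median 99.3) in Ngfr-positive and from 0 to 1036 CPM (median 4.04) in Ngfr-negative cells, with a log2 ratio of 2.21, and 41 and 30 thinned cells held it, but the log2 ratio was 0.43 when Ngfr was called after thinning.

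The oxidative stress enzymes Gpx7 and Cat, the latter catalase, followed at 2.07 and 1.43. Signalling genes among the higher 12 were Nfatc2, a calcium-regulated transcription factor (1.90), Pik3ca, a catalytic subunit of phosphoinositide 3-kinase (1.68, in 34 and 24 cells), and Arhgap31, a regulator of small GTPases (1.35, or -1.09 when Ngfr was called after thinning). Ablim1, an actin-binding protein, ranged from 0 to 2418 CPM (median 66.1) in Ngfr-positive and from 0 to 1049 CPM (median 4.03) in Ngfr-negative cells (log2 ratio 1.45). Snrpb (1.74) and Papola (1.38), which act in splicing and polyadenylation, Srpr (1.43), a receptor of the secretory pathway, Uvssa (1.41), of DNA repair, and Ccdc127 (1.71) made up the rest. Within the cells numbered 38 and above the log2 ratio was 0.76 for Cat, 0.60 for Ccdc127, 0.95 for Papola and 0.96 for Snrpb, and with Ngfr called after thinning it was 0.74 for Uvssa, all below 2-fold.

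Ugdh, which makes a sugar precursor of matrix glycans, led the lower genes. It ranged from 0 to 1651 CPM (median 15.1) in Ngfr-positive and from 0 to 3428 CPM (median 17.6) in Ngfr-negative cells. Its log2 ratio was -1.96, in 35 and 36 thinned cells. The difference thus lay in the summed level and not in detection. Sqstm1, an autophagy receptor, had a log2 ratio of -1.54 in 35 and 32 cells. Its median was 11.6 CPM in Ngfr-positive and 9.71 CPM in Ngfr-negative cells, the other direction, with a difference of -0.17 SD over cells. Ubxn4, of protein quality control in the endoplasmic reticulum, was in 30 and 42 cells with a difference of -0.53 SD over cells (log2 ratio -1.32).

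The other 9 lower genes had log2 ratios from -1.48 to -1.25. They were Aopep, an aminopeptidase, Yipf5, of the Golgi, Cspp1, of spindle and cilium, Immt, of mitochondrial cristae, Taf9 and Ubtf, of transcription, Bcl10, a signalling adaptor, Smim7, and Tubb6, a beta-tubulin that stood at 286 and 686 CPM. Within the cells numbered 38 and above, Sqstm1, Aopep, Yipf5, Taf9, Ubtf, Smim7 and Tubb6 lay between -0.94 and -0.59, short of 2-fold, and with Ngfr called after thinning Ubxn4 was at -0.97.

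Ranked by the share of thinned cells, the 8 genes found in more Ngfr-positive cells were Hat1, Mapre2, Anapc4, Myh10, Ddx46, Washc4, Capn2 and Cacybp. The summed log2 ratios of Anapc4 and Washc4 were in the other direction, at -0.40 and -0.25, and those of the rest were above 0. Hat1, a histone acetyltransferase, was in 26 and 8 cells, Mapre2, a microtubule end-binding protein, in 34 and 14, and Myh10, a non-muscle myosin, in 30 and 13. In the other direction stood Mtf2, Pcmtd1, Eef1akmt2, Marchf8, Hspa13, Pdgfrl, Cars and Prpf18. Pdgfrl, a secreted protein like the receptor of platelet-derived growth factor, was in 1 and 15 cells, and Cars, a tRNA synthetase, in 4 and 18. A second random thinning put only 2 of these 8 genes among the first 8 in each direction, so the order of this ranking depends on the draw.

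Lastly, the positive cells were divided by their Ngfr reads, the values that the split itself used, for genes picked after their values were seen. Sox2 was in 15.5% of the thinned cells with 0 Ngfr reads, in 50% of the 26 cells with 1 to 9 reads and in 34.4% of the 32 cells with 10 or more. Lmo4 was in 62.1%, 88.5% and 81.2%, and Map6 in 12.1%, 42.3% and 37.5%. Ets1 had another order, in 60.3%, 61.5% and 87.5% of cells.

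Prx was in 24.1%, 3.85% and 25% of the same cells, while its summed level was 44.6, 19.7 and 8.45 CPM, so its share and its level gave different orders. Mki67 was in 24.1%, 53.8% and 15.6% of cells. Sox10 was in 72.4%, 80.8% and 78.1%. The median number of Schwann markers was 17, 19 and 17, and of myelin genes 7, 7.5 and 7.5.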

How the data were processed

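Each of the 346 files holds the reads of 1 cell. The authors mapped read pairs to the mm10 genome with Subread (version 1.4.6 in the submitters' processing notes) and deposited raw counts per Entrez gene from featureCounts, not normalised and with no molecular identifiers, so a molecule counts once for each amplified copy read. The deposited files also give the authors' gene length in bases, a column of another kind than the counts, used here for RPKM. An expression table of the whole series was not used here.

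Symbols came from RefSeq (GRCm38.p6). Of 27179 genes, 25138 were kept, after 1904 without a symbol, 122 ribosomal protein and 15 mitochondrial genes. No doublet caller was run, since wells were inspected. The 346 files held distinct counts.

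Reads were summed over the cells of a group. Ratios were taken after adding 5 CPM, for genes at 10 CPM or more in either group, which understates the change of low genes, and a gene was called at a log2 ratio of 1 in size. A gene with 0 reads in a group has no fold printed. Results of some list members are not reported here. Shares come from cells thinned to 100000 reads. Single-cell levels are log2(CPM + 10). Intervals are exact (Poisson, Clopper-Pearson) at 95%, and limits at a count of 0 use 3 counts.

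The members and the 23 gene lists (281 genes, all matched) were chosen with earlier results of these data known. Named genes were Ngfr, Sox10, the list members, and, with Ngfr left out, the 12 largest ratios in each direction among genes at 50 CPM or more, present in 50% or more of the higher group's thinned cells and with no cell over 25% of a group's reads, and the 8 largest differences in thinned share. Gosr1, Map6, Tpp2 and Vcl were named after their values were seen. Alternatives changed the constant, filters, weights, scaling (edgeR 4.0.16 TMM, DESeq2 1.42.0 size factors), cells and the call of Ngfr. The calculations were tested on simulated cells. Python 3.11.15, numpy 2.4.6, scipy 1.17.1, pandas 2.3.3 and R 4.3.3 were used.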

Additional observations from a re-analysis of the deposited data

Results flagged for a closer look

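Ngfr reads were also present in the pre-pubertal cells that missed the coverage filter and entered no comparison. Of 28 such cells, with a median of 11322 reads, 8 (28.6%, exact 95% interval 13.2 to 48.7) held 30 Ngfr reads in all, a summed level of 56.4 CPM (38.0 to 80.5) against 62.7 CPM over the 116 analysed cells and 0 reads in the 119 pubertal cells. Most of them, 25, were numbered 1 to 37.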

How the results depend on the processing

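The counts of genes past 2-fold were within 1.5 times those reported under every setting but 2. Without the highest cell of each gene in each group they were 1018 higher and 1096 lower, of 6878 genes, and with only the genes in at least 50% of thinned cells, an alternative chosen after seeing the data, 75 and 71, of 1740. Elsewhere they ranged from 1331 to 1928 higher and from 1466 to 2355 lower. DESeq2 size factors shifted all log2 ratios by 0.10 (TMM by 0.07), which turned the balance to 1854 higher and 1640 lower. A shift of this size reversed the direction of no named gene that was past 2-fold. It did move genes across the 2-fold line, such as Dcn at -0.96 and Tyms at -0.92 with DESeq2 size factors. The share of Ngfr-positive cells was 45.8% with no coverage filter and 52% at 200000 reads and 2000 genes, and 35.6% when at least 10 Ngfr reads were required and cells with fewer left out. The ratio of median depths ranged from 1.04 to 1.30.

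Of 72 named genes past 2-fold, under 16 settings, 1116 of 1152 values kept their direction, 989 of them past 2-fold. Ndn and Gldn reversed to 0.069 and 0.089 for mean CPM of single cells, 0.018 and 0.14 in thinned cells, 1.60 and 1.14 in cells of 200000 to 600000 reads, and 1.59 and 1.21 in cells 38 to 144. Mcm2 was -0.10 and -0.090 in the latter 2 settings. Without the highest cells, Ndn was 0.74, Mcm2 -0.016, Cdc20 0.26, Aurka 0.069 and Tyms 0.26, where the alternative itself removes the cell that held most reads. At 10 or more Ngfr reads Tnfrsf19 was -0.20 and Nfasc -0.35. With Ngfr called after thinning Tnfrsf19 was -1.99, Bcas1 -0.50 and Arhgap31 -1.09. In the 12 cells numbered 1 to 37, of which 3 are negative, Nes was -1.18, Lamb2 1.36, Cdc20 0.86, Aurka 0.61, Cspp1 0.41, Immt 0.34, Bcl10 3.22, Eef1akmt2 0.68, Mtf2 2.19, Dcn 0.40, Krt18 0.96 and Tyms 1.13. Without the 20 cells with markers of other types, chosen after seeing the data, Dcn was 4.81 and the fibroblast median 0.12. Fibroblast markers were part of that choice, so both values are set in part by it. The cause of the other reversals was not tested.

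Over these settings the median log2 ratio of 13 of 18 gene lists took both signs, so their directions are not settled here. No paired analysis was possible because the numbers in the labels name cells and pair none with a cell of another group. Cells of 1 stage, with no mouse named, give no test, and a gene in few cells has a ratio that single cells set. At 100000 reads, absence of Ngfr in a cell means absence at that depth.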
